A study of Mus musculus with 6 samples.

Results

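The genes that write, copy, erase and protect DNA methylation were followed across day 3.5 FLK1+ mesodermal cells with and without SCL (TAL1), a basic helix-loop-helix factor required for blood formation. A list of 10 genes was looked up by symbol: the DNA methyltransferases Dnmt1, Dnmt3a, Dnmt3b and Dnmt3l, the hemimethylated DNA reader Uhrf1, the TET dioxygenases Tet1, Tet2 and Tet3, and the imprint-protecting factors Zfp57 and Trim28. Of these, 9 were found among the 14005 genes of the expression table, and Dnmt3l was not analysed here.

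RNA was sequenced from 6 libraries of FLK1+ cells, isolated at day 3.5 of embryoid body (EB) differentiation of mouse embryonic stem (ES) cells. The WT group comprised 3 libraries from the J1 wild-type ES line, and the Scl-/- group comprised 3 libraries from an ES line that lacks functional Scl on both alleles. The cells were bound to magnetic beads through an antibody to FLK1 (KDR), the VEGF receptor of lateral plate and blood-forming mesoderm, and received no other treatment. Replicates 1 to 3 stand for 3 independent differentiations. The labels give the strain as C57Bl/6 X Sv129 for 3 libraries and with another final number for each of the other 3, so strain was not used. Each genotype is represented by a single ES line, so that the absence of SCL and any other difference between the lines cannot be told apart.

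DNA methylation in mammals is placed on CpG sites by the de novo enzymes DNMT3A and DNMT3B, and is copied at each replication by DNMT1, which UHRF1 brings to the hemimethylated sites behind the fork. The TET enzymes oxidise 5-methylcytosine and so start its removal. At imprinted genes, where the allele from one parent is silent, the zinc finger protein ZFP57 binds the methylated control region and recruits the corepressor TRIM28 (KAP1), which keeps the mark in place while the rest of the genome is reprogrammed. In the blood system TET2 and DNMT3A are best known as genes often mutated in clonal haematopoiesis.

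Expression is given in CPM, read counts scaled to the size of each library,, as normalised by the authors. The 6 libraries held between 38623641 and 47621120 reads on the listed genes, and 3 reads correspond to between 0.0615 and 0.0784 CPM, a floor that covers counting error only. Differences were tested with limma on log2(CPM + 0.5) over 13991 genes, and a gene was called at a Benjamini-Hochberg adjusted p under 0.05 with an absolute log2 fold change above 0.48. Every log2 fold change is Scl-/- against WT, and ± after it is its standard error (SE). Same-numbered libraries of the 2 groups deviated together, so a fit with the replicate number as a block stands beside the first fit where it changes a call. The p-values measure the spread between these differentiations of 1 line per genotype. Tal1, the targeted gene, was at 303, 182 and 306 CPM (WT) against 9.35, 5.68 and 5.87 CPM (Scl-/-), as the labels say. Kdr, the gene for FLK1, had 832 to 868 CPM in WT and 724 to 810 CPM in Scl-/- libraries. Of the 10 FLK1+ mesoderm markers, Kdr included, 2 were called higher in Scl-/- cells without the block (Mixl1 and Etv2). With the block 6 were called higher (also Mesp1, T, Eomes and Pdgfra). Of all genes tested, 2.36% were called without the block and 12.6% with it, in either direction. The other 4 markers were called in neither fit. Their log2 fold changes were below 0, at -0.15 for Kdr, -0.45 for Hand1, -0.61 for Foxf1a and -0.15 for Bmp4. The 10 markers summed to 2219 to 2566 CPM in WT and 2730.4 to 3324 CPM in Scl-/- libraries. Summed over each list of markers of other cell types, the pluripotent and epiblast genes (9 of 10 measured, none at 0) had 142 to 218 CPM in WT and 129 to 297 CPM in Scl-/- libraries, and the neural genes (3 of 5 measured) 69.7 to 122 and 129.6 to 173 CPM. Endoderm genes (2 of 6 measured, Sox17 and Cer1) had 8.34 to 22.4 and 3.12 to 8.44 CPM, and germ cell precursor genes (3 of 5 measured) 11.3 to 15.97 and 14.4 to 23.04 CPM. The markers Utf1, Sox1, Sox3, Foxa2, Ttr, Afp, Hnf4a, Prdm14 and Nanos3 were not analysed here. In a bulk sample, fewer cells of a type and less RNA per cell cannot be told apart.

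Zfp57 was higher and Tet2 and Tet3 were lower in Scl-/- cells, whereas the levels of Dnmt1, Uhrf1, Dnmt3b, Trim28 and Tet1 overlapped between the groups. Without the block, 1 of the 9 genes was called (Zfp57), where 2.36% of all genes tested were called. With the block, 3 were called (Zfp57, Tet2 and Tet3), where 12.6% of all genes were. The libraries of the groups did not overlap for 4 of the 9 (Zfp57, Tet2, Tet3 and Dnmt3a), against 21.6% of all genes. Of the 9 fold changes 3 were above 0 and 6 below, with a median of -0.05 on the log2 scale against 0.01 over all genes. The median absolute log2 fold change of the 9 was 0.11, below the 0.16 of all genes. The 9 genes lie on chromosomes 2, 3, 6, 7, 9, 10, 12 and 17, and none lies on chromosome 1 or 11, the chromosomes whose median log2 fold change stood away from 0 (-0.29 over 789 genes and 0.31 over 1211 genes).

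**Figure D1:**
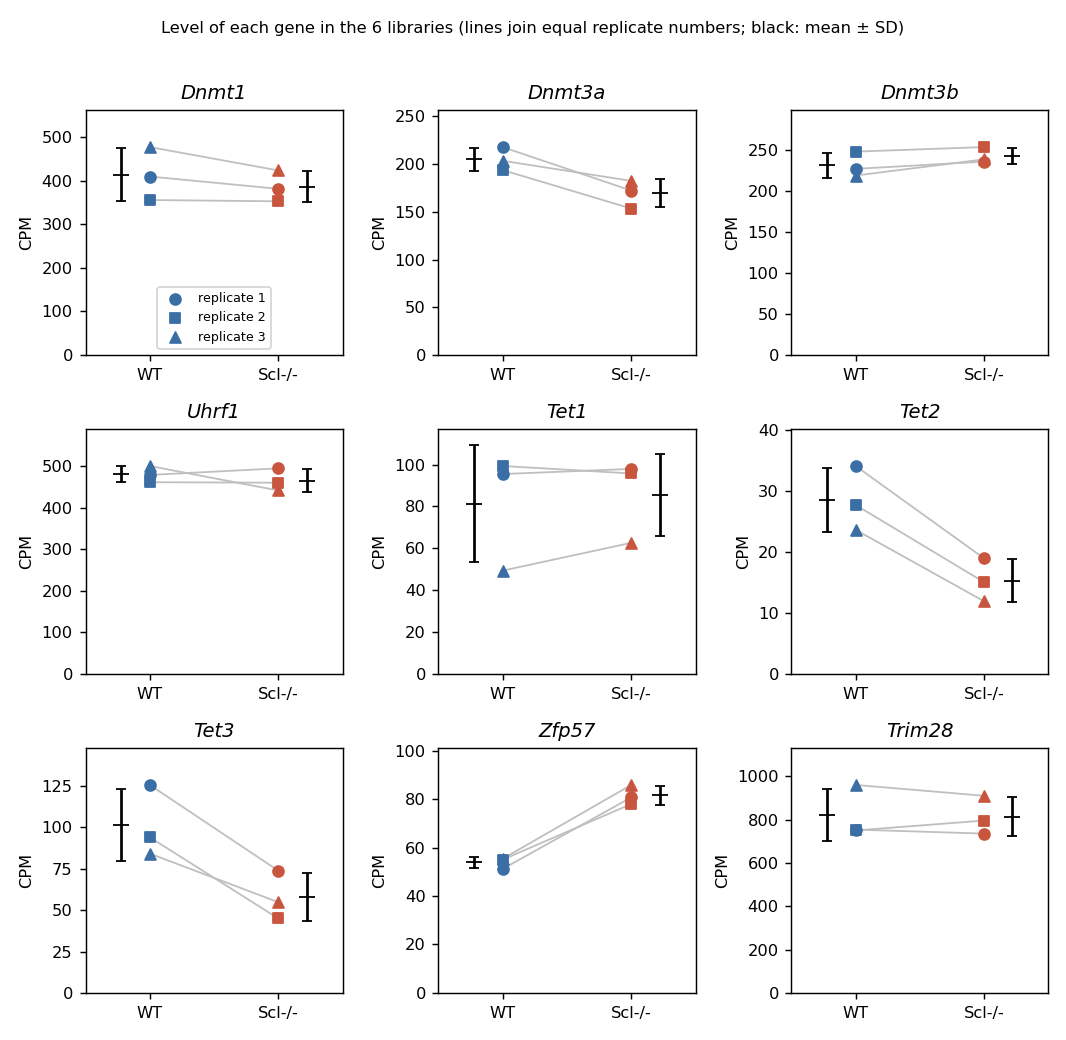
Level of each of the 9 genes (y axis, CPM, starting at 0) in the WT and Scl-/- libraries. Each point is 1 library, its shape gives the replicate number, grey lines join equal numbers, and black bars give the mean ± SD of 3 libraries. Zfp57 rises and Tet2 and Tet3 fall in each of the 3 pairs, while Tet1 follows the replicate number, with replicate 3 low in both groups.

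Zfp57 encodes the KRAB zinc finger protein that reads methylated imprinting control regions. The gene (ENSMUSG00000036036) spans chr17:37138108-37147580 on the plus strand of mm9. In order of replicate number its level was 51.2, 55.0 and 55.4 CPM for WT against 80.7, 78.01 and 85.9 CPM for Scl-/- cells. The lowest Scl-/- library lay well above the highest WT library, and replicates of a group lay close together. The mean rose from 53.9 ± 2.31 to 81.5 ± 3.999 CPM (SD, n = 3 each), a fold change of 1.51 and a log2 fold change of 0.59 ± 0.09 (limma, adjusted p = 0.0236). The rise was seen in each pair, with log2 differences of 0.65, 0.50 and 0.63. Few genes varied less within groups: the residual SD of Zfp57 was 0.07 on the log2 scale, above that of 5.25% of the genes tested. With the block the gene was called as well (SE 0.07, adjusted p = 0.000904). The call without the block did not survive most omissions. It was lost without WT replicate 1 (log2 fold change 0.56, adjusted p = 0.158), WT replicate 2 (0.61, 0.0518), WT replicate 3 (0.61, 0.0616), Scl-/- replicate 2 (0.62, 0.0842) or Scl-/- replicate 3 (0.56, 0.0875), and held without Scl-/- replicate 1 (adjusted p = 0.0487). With the block it held in all 6 omissions. Of the marker sums given above, those of the mesoderm and neural genes also separated the groups. The germ cell precursor sum overlapped but was higher in Scl-/- cells in each pair (11.3 and 14.4, 15.97 and 20.6, 13.1 and 23.04 CPM), and 2 of its 3 genes were called higher with the block. In the pluripotent list, whose sum overlapped, the block gave 5 calls, higher for Pou5f1, Nanog and Dppa5a and lower for Esrrb and Dppa4. The part of these markers in the levels of Zfp57, Tet2 and Tet3 was not tested.

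The 250 bases upstream of the outermost RefSeq start of Zfp57 (1 of 3 starts, GRCm38.p6, chr17:37000913-37001162, plus strand) are shown because Zfp57 is the gene called in both fits and because SCL-containing complexes bind E-boxes and GATA sites. Capitals mark each match to the E-box CANNTG, a palindrome that reads alike on both strands.
Zfp57: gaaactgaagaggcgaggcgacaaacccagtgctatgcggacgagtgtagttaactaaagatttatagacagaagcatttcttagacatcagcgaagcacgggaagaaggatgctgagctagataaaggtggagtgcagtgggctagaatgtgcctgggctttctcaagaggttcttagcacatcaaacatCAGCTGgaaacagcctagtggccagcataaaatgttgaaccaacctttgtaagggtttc
The window held 6 CpG sites, against a median of 16 (quartiles 10 and 23) over the 9508 windows of this length that could be drawn for genes of the table. It had a single E-box, of the form CAGCTG, and a single GATAA, searched on both strands and not overlapping the E-box. Of all windows, 55.9% held CANNTG, 11.5% CAGCTG and 14.1% GATAA, so these letters are common upstream of genes.

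TRIM28 is the corepressor that ZFP57 recruits. The gene (ENSMUSG00000005566) spans chr7:13609501-13616384 on the plus strand. Trim28 had 753, 750 and 959 CPM in WT and 735, 795 and 909 CPM in Scl-/- libraries. Replicate 3 was the highest of both groups, and the groups overlapped almost fully. The log2 fold change was -0.01 ± 0.14 (limma, adjusted p = 0.991), with a 95% interval from -0.33 to 0.31, and from -0.16 to 0.14 with the block. A change of more than the fold threshold thus lay outside both intervals.

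Of the TET genes, Tet2 and Tet3 were lower in Scl-/- cells in each pair, and Tet1 was not. Tet2 (ENSMUSG00000040943) spans chr3:133126643-133207354, minus strand. WT replicates stood at 34.1, 27.7 and 23.6 CPM, and Scl-/- replicates at 18.9, 15.04 and 11.9 CPM. Each Scl-/- library was below every WT library, and in both groups replicate 1 was the highest and replicate 3 the lowest. The mean went from 28.5 ± 5.28 to 15.3 ± 3.52 CPM (SD, n = 3), 1.85-fold lower. The log2 fold change of -0.88 did not pass without the block (SE 0.21, limma, adjusted p = 0.0809) and passed with it (SE 0.09, adjusted p = 0.000488). The differences within pairs were -0.83, -0.86 and -0.96, a narrow range beside the spread between replicates. With the block the call held when each library was left out in turn.

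Tet3 (ENSMUSG00000034832) spans chr6:83312367-83391672, minus strand. It had 125.7, 94.1 and 84.2 CPM in WT libraries and 73.9, 45.01 and 54.8 CPM in Scl-/- libraries. The groups did not overlap, and replicate 1 was the highest in both. The mean was 101 ± 21.7 CPM in WT and 57.9 ± 14.7 CPM in Scl-/- cells, 1.75-fold lower in the latter. As for Tet2, the log2 fold change of -0.81 did not pass without the block (SE 0.21, limma, adjusted p = 0.110) and passed with it (SE 0.09, adjusted p = 0.000795). Pair differences were -0.76, -1.06 and -0.61. With the block Tet3 too was called in all 6 fits that left out a library.

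Tet1 is a TET gene of ES cells and of the early epiblast. The gene (ENSMUSG00000047146) spans chr10:62267318-62361866, minus strand. It had 95.5, 99.3 and 49.4 CPM in WT and 97.9, 95.8 and 62.6 CPM in Scl-/- libraries. Here the libraries parted by differentiation rather than by genotype: replicate 3 was at 50.7% of the mean of the other replicates in WT and at 64.7% in Scl-/- cells. Between groups Tet1 had a log2 fold change of 0.11 ± 0.30 (limma, adjusted p = 0.928). The 95% interval ran from -0.58 to 0.80 without the block and from -0.09 to 0.31 with it. The residual SD of Tet1, 0.47 on the log2 scale, was above that of 92.9% of genes, against a median of 0.20. Among all genes tested, 27.3% were lowest in replicate 3 of both groups, as were Tet1 and Tet2 among the 9 genes.

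**Figure D2:**
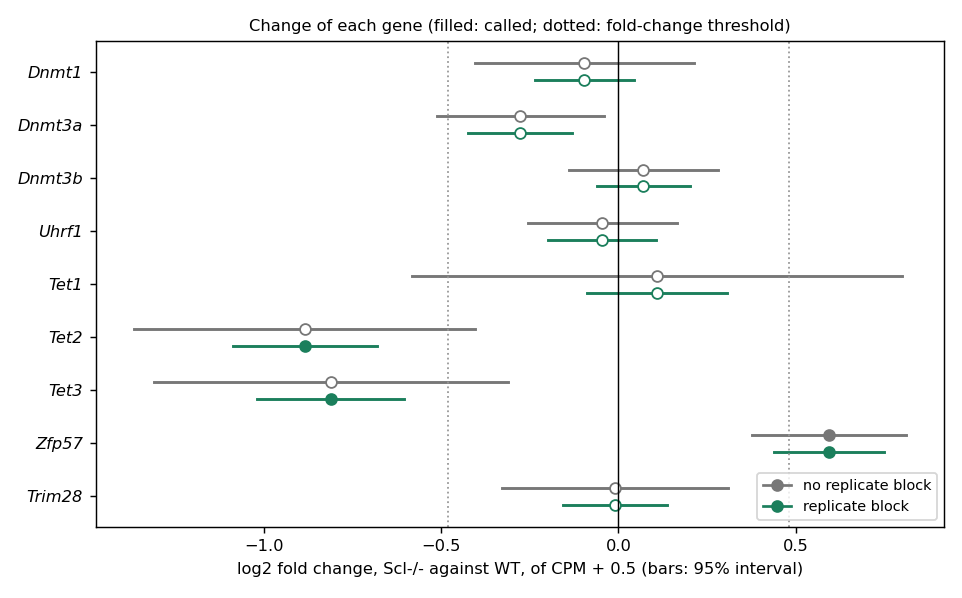
Log2 fold change of CPM + 0.5, Scl-/- against WT (x axis), of the 9 genes (y axis), with 95% intervals from limma without (grey) and with (green) the replicate block. Filled points were called and dotted lines mark the fold threshold of 0.48. The block narrows the intervals of Tet1, Tet2 and Tet3 most, and the points stay where they are.

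The upstream windows of the TET genes are shown side by side because Tet2 and Tet3 were called with the block and Tet1 was not. They are the 250 bases before the RefSeq start in GRCm38.p6, all on the minus strand, at chr10:62887325-62887574 for Tet1, chr3:133544391-133544640 for Tet2 and chr6:83441679-83441928 for Tet3. Capitals mark CANNTG.
Tet1: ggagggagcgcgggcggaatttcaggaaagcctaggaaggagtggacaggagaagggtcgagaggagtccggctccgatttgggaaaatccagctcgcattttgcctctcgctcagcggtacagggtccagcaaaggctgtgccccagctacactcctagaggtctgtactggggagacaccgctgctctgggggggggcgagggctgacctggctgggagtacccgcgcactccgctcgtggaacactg
Tet2: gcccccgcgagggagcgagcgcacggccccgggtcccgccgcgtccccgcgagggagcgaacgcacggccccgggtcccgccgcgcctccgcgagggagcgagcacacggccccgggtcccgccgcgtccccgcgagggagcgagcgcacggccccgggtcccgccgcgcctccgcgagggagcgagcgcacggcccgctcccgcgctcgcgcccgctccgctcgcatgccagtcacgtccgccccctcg
Tet3: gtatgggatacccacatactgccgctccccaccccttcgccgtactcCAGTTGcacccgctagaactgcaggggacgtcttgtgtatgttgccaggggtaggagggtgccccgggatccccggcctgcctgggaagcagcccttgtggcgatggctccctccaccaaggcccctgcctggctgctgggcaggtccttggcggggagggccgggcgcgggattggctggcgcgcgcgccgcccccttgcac
The window of Tet2 held 51 CpG sites, more than were found in 99.9% of all windows, at 83.6% G and C. Those of Tet1 and Tet3 held 15 and 17 CpG sites, close to the median of 16. Tet3 had a single CANNTG and Tet1 and Tet2 had 0, and no GATAA was found in any of the 3 windows on either strand.

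Levels of different genes were compared per kb of exon. The length is the union of all annotated exons, not that of the transcripts expressed, so this comparison is rough. On this scale Tet3 was the most abundant TET gene in WT cells. In CPM, Tet1 was above Tet3 in WT replicate 2 (99.3 against 94.1) and below it in WT replicates 1 and 3. Tet3 made up 51.8% ± 4.90 of the TET sum (CPM per kb), Tet1 30.7% ± 6.11 and Tet2 17.6% ± 1.28 (SD, n = 3). In Scl-/- cells the shares were 41.2% ± 7.16, 45.7% ± 6.73 and 13.0% ± 0.61. The Tet1 share was 30.1, 37.0 and 24.8% among WT libraries and 43.3, 53.3 and 40.6% among Scl-/- libraries, with no overlap. The TET sum itself was 21.5, 18.3 and 13.5 CPM per kb in WT and 15.4, 12.2 and 10.5 CPM per kb in Scl-/- libraries. WT replicate 3 lay below Scl-/- replicate 1 in this sum, so the ranges overlapped, although within every pair the Scl-/- library was lower. The log2 ratio of Tet1 to Tet2 was 1.49, 1.84 and 1.06 in WT and 2.37, 2.67 and 2.40 in Scl-/- libraries. The difference of 1.02 gave p = 0.1 in a 2-sided exact permutation test over libraries (0.15 adjusted over the 3 ratios computed), which is the smallest p that 3 against 3 libraries allow.

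**Figure D3:**
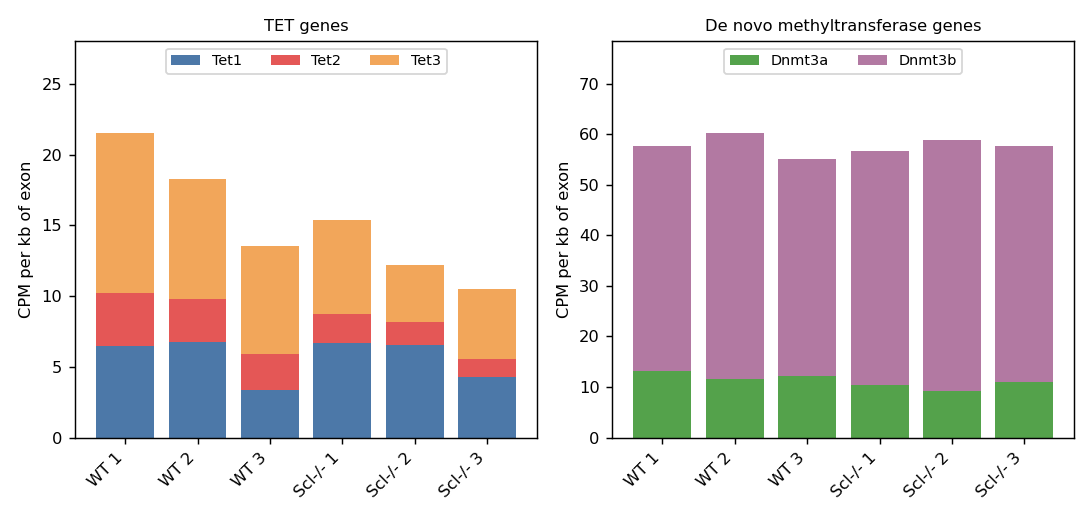
Summed level of the TET genes (left) and of the de novo methyltransferase genes (right) in each library, in CPM per kb of exon (y axes, starting at 0), stacked by gene. In Scl-/- libraries the Tet2 and Tet3 segments are shorter and the Tet1 segment is not, and the sum of Dnmt3a and Dnmt3b is level at 55.1 to 60.3 CPM per kb in all 6 libraries.

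The de novo enzymes changed little. Dnmt3a (ENSMUSG00000020661, chr12:3806007-3914443, plus strand) had 217.9, 193.8 and 203.5 CPM in WT and 172.3, 153.5 and 182.4 CPM in Scl-/- libraries. All Scl-/- libraries were below all WT libraries. The log2 fold change was -0.28, smaller than the fold threshold, so that Dnmt3a was called in neither fit. Its adjusted p was 0.213 without the block (SE 0.10) and 0.0169 with it (SE 0.06). Counting adjusted p alone with the block, 4 of the 9 genes passed, where 24.2% of all genes did. Dnmt3a no longer passed with the block when replicate 2 was left out of WT (adjusted p = 0.129) or Scl-/- (0.130). A processed transcript on the other strand, Gm10485, overlaps an exon of Dnmt3a, and since the counting is not known to have used strand, its reads and those of Dnmt3a cannot be told apart.

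Dnmt3b (ENSMUSG00000027478, chr2:153475186-153513466, plus strand) is the main de novo enzyme of the epiblast and early embryo. It had 227, 248 and 219 CPM in WT and 236, 254 and 239 CPM in Scl-/- libraries. The groups overlapped, and in both of them replicate 2 was the highest. Its log2 fold change came to 0.07 ± 0.09 (limma, adjusted p = 0.790), with a 95% interval from -0.14 to 0.28. Per kb, Dnmt3b made up 78.6% ± 1.83 of the sum of both de novo genes in WT and 82.4% ± 1.76 in Scl-/- cells (SD, n = 3). These shares rest on exon lengths of 16.6 kb for Dnmt3a and 5.11 kb for Dnmt3b. The mean WT levels in CPM were closer, at 205 and 232. The log2 ratio of Dnmt3b to Dnmt3a (CPM) was 0.06, 0.36 and 0.11 in WT and 0.45, 0.73 and 0.39 in Scl-/- libraries. WT replicate 2 lay just below the lowest Scl-/- library, and no value crossed. The difference of 0.35 was larger than the pooled SD of 0.17 and gave p = 0.1 in the 2-sided exact permutation test (0.15 adjusted).

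The maintenance pair was at a like level in both genotypes. Dnmt1 (ENSMUSG00000004099, chr9:20711650-20757317, minus strand) had 409, 356 and 477 CPM in WT and 381, 353 and 423 CPM in Scl-/- libraries. Replicate 3 was the highest and replicate 2 the lowest of either group. The log2 fold change was -0.10 ± 0.13 (limma, adjusted p = 0.817), with a 95% interval from -0.40 to 0.21. Uhrf1 (ENSMUSG00000001228, chr17:56442744-56462909, plus strand) had 479, 462 and 501 CPM in WT and 495, 460 and 442 CPM in Scl-/- libraries. Its replicates showed no common order in the groups. The log2 fold change was -0.05 ± 0.09 (limma, adjusted p = 0.888), with a 95% interval from -0.26 to 0.16. The log2 ratio of Uhrf1 to Dnmt1 differed by 0.05 between the groups, less than the pooled SD of 0.17 (p = 0.8, 2-sided exact permutation test, 0.80 adjusted).

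Ranked by mean CPM per kb of exon, the order in WT cells was Trim28 (203), Uhrf1 (113), Dnmt1 (78.7), Dnmt3b (45.4), Zfp57 (14.2), Dnmt3a (12.3), Tet3 (9.14), Tet1 (5.53) and Tet2 (3.09). Among neighbours in this order only Tet1 and Tet2 overlapped in their ranges over libraries. In Scl-/- cells the first 6 genes kept this order, at 201, 109, 73.3, 47.6, 21.5 and 10.2 CPM per kb. They were followed by Tet1 (5.81), Tet3 (5.22) and Tet2 (1.66), where Tet1 and Tet3 overlapped. The genes that copy methylation and the corepressor thus had levels several times those of the oxidising enzymes in both genotypes. Zfp57 and Dnmt3a, adjacent per kb in WT cells, were further apart in Scl-/- cells. In CPM their order was the other way, with means of 53.9 for Zfp57 and 205 for Dnmt3a in WT, and 81.5 and 169 in Scl-/- cells.

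For each of the 9 genes the most alike profiles were sought over the 6 libraries, by Pearson correlation of log2(CPM + 0.5) among the 11715 genes that averaged 5 CPM or more. With only 6 points, high values are common: from 3 (Uhrf1) to 328 (Tet1) genes had r above 0.95. Tet2 was most like Ctif and Med26 (r = 0.999 and 0.997), and Tet3 most like Rtkn2 and Ppp1r9a (0.997 and 0.991). Zfp57 was most like Cyp4f16 and Gprc5c (0.994 for both), and Tet1 most like Gm15623 and Zfp488 (0.998 and 0.997). Dnmt3a was nearest to Nab1 and Nck2 (0.993 and 0.991), and Dnmt3b to both rows named Sox4 (0.999 and 0.998). Dnmt1 was nearest to Map3k10 and Fbxo18 (0.998 and 0.997), and Trim28 to Aldoa and Rps15 (both 0.998). Uhrf1 was nearest to the thymidylate synthase gene Tyms and to Arrdc2 (0.975 and 0.965).

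The other genes of the pathway were read from 6 lists with 59 genes, of which 58 were tested and Dppa3 was not analysed here. Of the 58, 1 was called without the block and 4 with it, or 6.90% against the 12.6% of all genes. Their median log2 fold change was -0.01. An unadjusted p under 0.05 (limma, no block) was found for 6 of the 58, and for 2474 of all 13991 genes tested. None of the 8 partners of methylation maintenance was called in either fit, and none had an unadjusted p under 0.05 (limma). These include Uhrf2, the helicase gene Hells, Pcna and Lig1, and their log2 fold changes lay between -0.10 and 0.09. The 8 methyl-CpG readers likewise had 0 calls in either fit and 0 genes with an unadjusted p under 0.05, with log2 fold changes from -0.19 to 0.17. The 4 H3K36 methyltransferases, whose mark recruits the DNMT3 enzymes, had log2 fold changes from -0.32 to -0.01, and 0 of them were called in either fit. Without the block 1 had an unadjusted p under 0.05 (Nsd2, log2 fold change -0.32, limma). With the block Nsd2 passed on adjusted p alone (0.00861), and Ash1l had an unadjusted p of 0.0289 (adjusted p = 0.0927).

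In the base removal and TET partner list, 0 of 18 genes were called without the block, and the block brought 2 calls, where 12.6% of all genes were called. Without the block limma gave 3 of the 18 an unadjusted p under 0.05, against 2474 of all 13991 genes tested. Gadd45g, a stress-response gene linked to active demethylation, had 159.9, 81.4 and 139.9 CPM in WT and 63.5, 30.8 and 48.3 CPM in Scl-/- libraries. Every Scl-/- library was below every WT library. Its log2 fold change was -1.41, with adjusted p = 0.0743 without the block and 2.01e-05 with it, and with the block it was called in all 6 omissions. Parp1, a sensor of DNA strand breaks, had 598, 545 and 693 CPM in WT and 356, 391 and 504 CPM in Scl-/- libraries, without overlap. Its log2 fold change was -0.56 (adjusted p = 0.119 without and 0.00165 with the block), and it was not called with the block when replicate 1 of either group was left out. Parp1 lies on chromosome 1, whose median of -0.29 is given above, and the part of that shift in its difference was not tested. Tdg, the glycosylase that excises the oxidised bases made by the TET enzymes, was at 83.0, 86.9 and 86.1 CPM in WT and 80.7, 94.2 and 89.4 CPM in Scl-/- libraries, and the groups overlapped.

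Of the 14 TRIM28 partners and imprint guardians tested, 0 were called in either fit. At an unadjusted p under 0.05 there were 0 genes without the block and 3 with it (Cbx1, Ehmt2 and Daxx), and Cbx1 passed with the block on adjusted p alone (0.0122, log2 fold change 0.30). Cbx1 lies on chromosome 11. Zfp445, the other zinc finger gene that guards imprints, had 73.5, 68.6 and 52.1 CPM in WT and 77.4, 58.1 and 48.4 CPM in Scl-/- libraries. It thus overlapped between the groups, with a log2 fold change of -0.09 (adjusted p = 0.908), where Zfp57 did not overlap. The TRIM28-bound H3K9 methyltransferase gene Setdb1 had a log2 fold change of -0.07 (adjusted p = 0.785).

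The methyl donor cycle, which makes S-adenosylmethionine, held the only pathway gene called without the block. Mtr, the methionine synthase gene, had 82.7, 76.3 and 77.8 CPM in WT and 51.2, 57.7 and 58.1 CPM in Scl-/- libraries. It fell by 0.50 on the log2 scale (limma, adjusted p = 0.0486), with no overlap, and was called with the block as well (adjusted p = 0.00370). That call was lost with a minimum mean of 2 CPM, without an intensity trend, and without WT replicates 1 or 3 or Scl-/- replicates 2 or 3, each of which left 0 pathway genes called, and it was lost too without WT replicate 2 (only Gadd45g called) or Scl-/- replicate 1 (only Mat2b called), so that it held in 0 of the 6 omissions. With the block it was lost without replicate 1 of either group. Mat2b, the regulatory subunit of methionine adenosyltransferase, had 51.4, 57.4 and 51.6 CPM in WT and 64.3, 97.4 and 89.8 CPM in Scl-/- libraries. Its log2 fold change was 0.62 (adjusted p = 0.107 without and 0.00401 with the block), and it lies on chromosome 11, whose median was 0.31, a shift whose part in it was not tested. With the block it was lost without Scl-/- replicate 2. Mat2a, the catalytic subunit, was not called in either fit (log2 fold change 0.10).

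**Figure D4:**
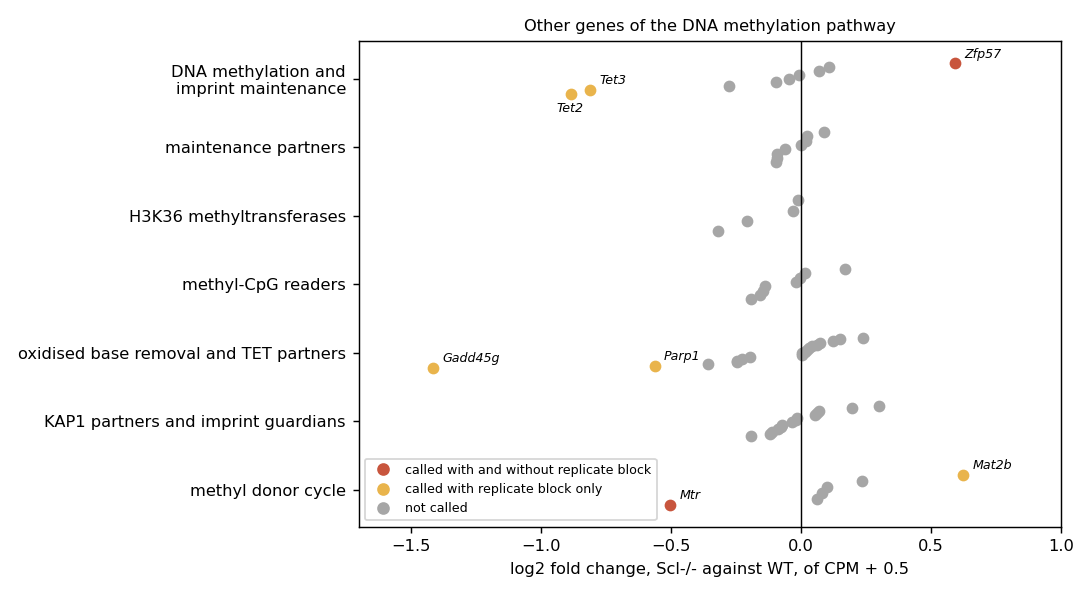
Log2 fold change of CPM + 0.5, Scl-/- against WT (x axis), of the 9 genes (top row) and of 58 other genes of the pathway by list (y axis), 1 point per gene. Red marks genes called in both fits, yellow those called with the replicate block only and grey the rest. Tet2, Tet3, Zfp57 and 4 labelled genes stand off a column of points near 0.

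Since DNMT1 and UHRF1 act during replication, 15 S phase genes were read beside them. None was called in either fit. Unadjusted p was under 0.05 (limma, no block) for 3 of the 15, against 2474 of all 13991 genes tested. With the block 5 of them (Mcm3, Mcm6, Cdc6, Gins2 and Slbp) passed on adjusted p alone, where 24.2% of all genes did. Their log2 fold changes lay between -0.38 (Mcm6) and 0.40 (Cdc6). Mcm3 and Mcm6 lie on chromosome 1 and Cdc6 on chromosome 11, and the part of the shifts of these chromosomes was not tested. Their summed level was 3743 to 4472 CPM in WT and 3437 to 4028 CPM in Scl-/- libraries. Among germline genes that are silenced by promoter methylation, 3 of 15 were measured (Sycp1, Sycp3 and Ddx4). They were at 8.44 CPM or less in every library, 0 were called in either fit and 0 had an unadjusted p under 0.05.

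Imprinted genes, the loci that ZFP57 and TRIM28 protect, differed widely between the groups. Among the maintenance genes, Zfp57 was called in both fits, and Trim28, Dnmt1 and Uhrf1 in neither. The part of these maintenance genes in the imprinted differences was not tested. Of 25 imprinted genes tested, 8 were called without the block (5 higher and 3 lower) and 19 with it (11 higher and 8 lower), where 2.36% and 12.6% of all genes were. The largest differences were those of Grb10 (log2 fold change -7.25), Zim1 (-3.17), Meg3 (3.13) and Rian (2.92). Meg3 and Rian, which are transcribed from the maternal allele of one domain, had 27.5 to 71.1 and 30.3 to 54.8 CPM in WT and 342 to 533 and 309 to 335 CPM in Scl-/- libraries. Zim1 had 11.4 to 17.3 CPM in WT and 0.93 to 1.41 CPM in Scl-/- libraries. The list was drawn up with its results known, and its counts describe these libraries only.

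Some imprinted genes also differed among the Scl-/- libraries themselves. Igf2 had 1195, 106 and 127 CPM in Scl-/- replicates 1 to 3, and Cdkn1c 92.1, 14.2 and 8.75 CPM, both chosen after their values were seen. Scl-/- replicate 1 was near the WT levels of these genes (942 to 1701 CPM for Igf2 and 92.0 to 98.3 CPM for Cdkn1c), and replicates 2 and 3 were far below. The difference between the highest and the lowest Scl-/- library was 3.49 on the log2 scale for Igf2 and 3.32 for Cdkn1c. For the maintenance genes it was 0.14 for Zfp57, 0.31 for Trim28, 0.26 for Dnmt1 and 0.16 for Uhrf1. In WT libraries these 4 genes spanned 0.11, 0.36, 0.42 and 0.12. Zfp57 without Scl-/- replicate 1 had a log2 fold change of 0.60, close to the 0.59 of all 6 libraries. Tet2 and Tet3 spanned more, 0.65 and 0.71 among Scl-/- libraries and 0.52 and 0.57 among WT libraries, with replicate 1 the highest in both groups. Cell type markers differed in the same library, in both directions. In Scl-/- replicates 1 to 3, Hand1 was at 444, 217 and 292 CPM, Foxf1a at 89.1, 33.9 and 39.1, and Bmp4 at 174, 96.6 and 108. The rest of the FLK1+ mesoderm markers (Kdr, Mesp1, Mixl1, T, Eomes, Etv2 and Pdgfra) were lowest in Scl-/- replicate 1, with Mesp1 at 67.8, 178 and 176 CPM. All of these but Kdr were lowest in replicate 1 of WT as well, with Mesp1 at 30.5, 70.5 and 52.1 CPM. Pou5f1 was at 71.6, 190.3 and 177 CPM in Scl-/- replicates 1 to 3, and was also lowest in replicate 1 of WT (67.1, 122 and 92.3 CPM). The part of these markers or of the maintenance genes in the spread of Igf2 and Cdkn1c was not tested, and methylation itself was not measured in these libraries.

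**Figure D5:**
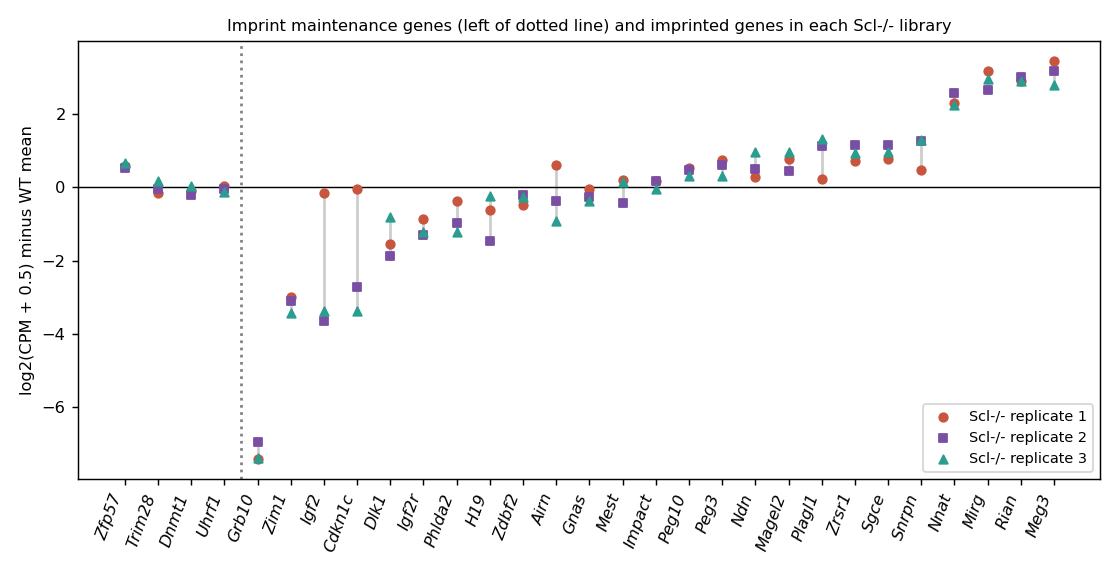
Level of 4 maintenance genes (left of the dotted line) and 25 imprinted genes in each Scl-/- library, as log2(CPM + 0.5) minus the WT mean (y axis). Each point is 1 Scl-/- library, with the replicate number by shape and colour, and imprinted genes run from the lowest to the highest mean. Zfp57 is above 0 in all 3 libraries, Trim28, Dnmt1 and Uhrf1 lie at about 0, and Igf2 and Cdkn1c have replicate 1 near 0 and replicates 2 and 3 below -2.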

How the data were processed

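The authors aligned reads to mm9 (TopHat2 2.0.8b and SAMtools 0.1.19 are named in the submitters' processing notes), removed duplicate read pairs, normalised with edgeR's TMM method and deposited CPM values of 14005 genes. The counting tool, its strand setting and the annotation are not given in the sources used here. Removal of duplicates can limit the values of highly expressed and short genes. Groups and replicate numbers come from the labels. All values were whole multiples of 1 step per library (tolerance 0.1 reads), which gave the reads per library. Since the deposited values are CPM, no count model was run.

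Values were log2(CPM + 0.5), a scale that understates changes of low genes. A gene entered the fit if 3 or more libraries reached 0.5 CPM, which removed 14. The model, in limma 3.58.1 under R 4.3.3 (lmFit and trended eBayes), held genotype alone or, as an alternative, genotype and the replicate block. The fit was tested on simulated data. The labels' design names independent differentiations, and deviations from the group means correlated at 0.59, 0.76 and 0.75 across genes for same-numbered libraries and between -0.62 and -0.10 for others, so the numbers were taken as pairs. With complete pairs the block changes only the SE of a fold change. Ratios were tested by exact permutation over libraries, which ignores the pairs, and by sign flips over the 3 pairs (Python 3.11.15 and NumPy 2.4.6).

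Positions and exon lengths come from the GENCODE annotation of mm9, and promoter windows from RefSeq (GRCm38.p6), in which all 9 genes were matched. No coordinates were converted between these builds. Genes named are the 10 listed, pathway genes called in either fit (up to 4 per list), up to 4 imprinted genes and marker genes at the extremes, and the 2 most correlated genes of each. Uhrf2, Hells, Pcna, Lig1, Tdg, Zfp445, Setdb1, Mat2a, Igf2, Cdkn1c, the S phase genes and the list or marker genes named beside a count or a library were added after their values were seen. The 10 genes, all lists and the tests were chosen with earlier results of these data known. Alternatives were another pseudocount (0.1 or 1), another filter (none, or a mean of 2 CPM), median-ratio rescaling, no trend, and each library left out in turn with and without the block.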

Additional observations from a re-analysis of the deposited data

How the results depend on the processing

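The replicate block, which pairs libraries by differentiation, raised the genes called from 330 to 1768 (3385 at any fold change), the calls among the 9 methylation genes from 1 to 3 (4 at any fold change) and those among 58 pathway genes from 1 to 4 (7 at any fold change). Leaving out 1 library at a time gave 44 to 384 genes called, 0 to 1 methylation genes and 0 to 1 pathway genes. With the block, leaving out WT replicates 1, 2 or 3 gave 2060, 1116 and 1220 genes, and Scl-/- replicates 1, 2 or 3 gave 2059, 1110 and 1205. In these 6 fits 3 methylation genes and 2 to 4 pathway genes (2, 3 or 4) were called. Mtr was called in none of the fits that left out a library without the block, and with the block Mtr and Parp1 were lost without replicate 1 of either group and Mat2b without Scl-/- replicate 2. Mtr was also lost at a minimum mean of 2 CPM and without an intensity trend (0 pathway genes called in each). When a library was left out, 4 genes with a log2 fold change near 0 turned direction: Dnmt1 ran from -0.20 to 0.012, Tet1 from -0.22 to 0.32, and Trim28 from -0.093 to 0.11, while Uhrf1 turned with the block only. With the block, omission of either replicate 3 gave 0.022 for Uhrf1, -0.008 for Tet1 and 0.025 for Trim28, and omission of WT or Scl-/- replicate 1 gave 0.004 for Trim28. The log2 ratio of Uhrf1 to Dnmt1 ran from -0.027 to 0.16, with WT replicate 3 and Scl-/- replicates 1 and 2 turning it. The cause was not tested. Of 189 alternative values for the 9 genes, 153 kept direction and call, 17 gained significance with the block (Tet2, Tet3 and, at any fold change, Dnmt3a), 5 lost the call (Zfp57 without a library) and 14 turned. The block changed no other call among them. The lowest count of any of the 9 genes was 525 reads, so counting error is small beside the spread between differentiations.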
